A study of Mus musculus with 13 samples.

Results

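The miR-30 and miR-384 family was followed in AGO CLIP libraries of mouse cortex, a method that crosslinks Argonaute (AGO) to the RNA it holds and sequences the bound fragments. The family was taken by name, as 9 mature arms of the mouse (mmu): the guide arms miR-30a-5p, miR-30b-5p, miR-30c-5p, miR-30d-5p, miR-30e-5p and miR-384-5p, and the opposite arms miR-30a-3p, miR-30d-3p and miR-30e-3p. Of these, 7 were rows of the table of 1705 miRNAs, all 6 guide arms and miR-30d-3p. The arms miR-30a-3p and miR-30e-3p were not analysed here.

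All mice were wild-type C57BL6 aged 7 to 8 weeks, and all tissue was cortex. The groups were the ipsilateral hemisphere after middle cerebral artery occlusion (MCAO, 5 libraries), the contralateral hemisphere after MCAO (4 libraries) and sham surgery (4 libraries), in which arteries were exposed without a filament. In MCAO a filament blocked the artery for 35 min under isoflurane, and cortex was taken after 3 h of recovery. Replicate numbers mark distinct days of surgery: ipsilateral replicates were 1 to 5, contralateral replicates 1, 2, 4 and 5, and sham replicates 1, 2, 3 and 5.

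A miRNA is cut from a hairpin precursor, and 1 of its arms is usually kept by AGO as the guide. The guide finds its messenger RNAs mainly through the seed, bases 2 to 8, which pairs with matching letters most often in the 3′ untranslated region (3′UTR). miR-30 family members are present in most tissues and are known, mainly from heart, epithelial and tumour cells, for repressing calcineurin subunits, Beclin 1 and Snail. miR-384-5p shares the miR-30 seed and is best known from brain, where it has been studied in synaptic plasticity in rodents.

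The guide arms share their seed, and the bases after it set them apart. RefSeq (GRCm38.p6) gave mature sequences for 4 of the 6 guide arms and for the 2 opposite arms not analysed here. Capitals mark bases 2 to 8. The guide arms are shown because the target sites counted further on match bases 2 to 8 of these arms, or bases 2 to 7 followed by an A.
miR-30a-5p: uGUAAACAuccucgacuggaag
miR-30e-5p: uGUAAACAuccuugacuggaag
miR-30c-5p: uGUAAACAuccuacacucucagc
miR-384-5p: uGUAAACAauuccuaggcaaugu
miR-30a-3p: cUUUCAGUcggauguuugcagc
miR-30e-3p: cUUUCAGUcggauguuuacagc

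The 4 guide arms shown carry the same 7 seed letters, GUAAACA, and the 2 opposite arms share another seed, UUUCAGU. miR-30a-5p and miR-30e-5p differed at 1 of 22 positions, C13U counted from the 5′ end of miR-30a-5p. A tag that does not reach that base cannot be told apart between them, so the split of tags between miR-30a-5p and miR-30e-5p is uncertain. miR-30d-5p and miR-30b-5p had no sequence here, so how well their tags can be told from those of the other arms was not checked. The order, shares and correlations of single guide arms given below carry this limit. miR-30c-5p differed from miR-30a-5p at 5 of 22 positions, and miR-384-5p differed from it at 10 of 22. The hairpin Mir30a lies on chromosome 1, with its 5p arm at positions 23272274 to 23272295 on the plus strand. The only GENCODE M21 gene over that arm was the hairpin's own miRNA entry, while the AGO peak there was labelled as an intron. Mir30e and Mir30c-1 both lie on chromosome 4 on the minus strand, in introns of Nfyc, which encodes a subunit of the CCAAT-binding factor NF-Y, with their 5p arms at 120772660 to 120772681 and at 120769584 to 120769606. Mir30c-2, on chromosome 1 at 23291714 to 23291736 for its 5p arm, overlaps an exon of the long noncoding RNA Gm27028, and Mir384 lies on chromosome X with its 5p arm at 105344332 to 105344354.

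The libraries held 3851 to 61708 miRNA tags, 408129 in all, and 3780 to 71027 tags in AGO peaks. The shallowest was ipsilateral replicate 5, whose median miRNA had 1 tag. Most miRNAs lay near a common floor: 1249 of 1705 (73.3%) averaged between 0.5 and 2 times their library's median, and 244 reached 2 times or more. All 7 neuronal and brain markers were present, from miR-124-3p at 29.1 times the median down to miR-128-3p at 0.623 times. The sum of those 7 was 152 to 252 per 10000 miRNA tags in ipsilateral libraries, 77.2 to 238 in contralateral libraries and 165 to 237 in sham libraries, lowest in contralateral replicate 5. Sums of markers of other cells were lower but held fewer arms. 5 of 6 of blood and myeloid cells summed to 20.1 to 41.0 per 10000 over all libraries, and 2 of 3 of muscle to 4.49 to 10.4. The single arms present for oligodendrocytes, endothelium and liver reached at most 9.15, 3.40 and 6.86. Taken singly, the highest marker of other cells was miR-142a-5p at 1.87 times the median, above miR-128-3p. The remaining neuronal and brain markers were at 2.09 times or more. The 3 libraries of replicate 1 stood apart in their peak tags, of which 55.9% to 67.1% lay outside exons, against 22.8% to 50.7% in the other 10.

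3 guide arms made up most of the family bound to AGO: miR-30d-5p, miR-30a-5p and miR-30e-5p. Averaged over the 13 libraries, miR-30d-5p stood at 12.6 times the library median and ranked 15 of 1705 miRNAs by its share of tags. miR-30a-5p stood at 6.25 times the median, rank 28, and miR-30e-5p at 4.39 times, rank 53. Ipsilateral replicate 5, whose median miRNA had 1 tag, raised these means, with 53, 17 and 7 times for miR-30d-5p, miR-30a-5p and miR-30e-5p. In the same order, the medians over the 13 libraries were 8.75, 4.70 and 3.81 times. The other 4 arms lay near the floor. miR-384-5p was at 1.80 times the median (rank 273), miR-30d-3p at 1.37 times (rank 538), miR-30c-5p at 1.06 times (rank 765) and miR-30b-5p at 0.569 times (rank 1400). miR-30d-5p and miR-30e-5p were at or above 2 times the median in 13 of 13 libraries, miR-30a-5p in 12, and miR-30b-5p and miR-30c-5p in 0.

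Neighbours in this order were compared within libraries with an exact paired permutation test, two-sided and adjusted over the 6 pairs (Benjamini-Hochberg). The order came from the same 13 libraries, so the pairs and their directions were not chosen in advance. The test treated the 13 libraries as independent, though those with the same replicate number share a day of surgery. 4 of the 6 steps passed at an adjusted p under 0.05. miR-30d-5p was higher than miR-30a-5p in 13 of 13 libraries, by 0.90 ± 0.42 on the log2 scale of tags (SD, adjusted permutation p = 0.000732). miR-30e-5p was higher than miR-384-5p in 13 of 13, by 1.18 ± 0.54 (adjusted permutation p = 0.000732), which separates the 3 leading arms from the others. The steps between miR-30a-5p and miR-30e-5p (adjusted permutation p = 0.165) and between miR-30d-3p and miR-30c-5p (adjusted permutation p = 0.196) did not pass.

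**Figure D1:**
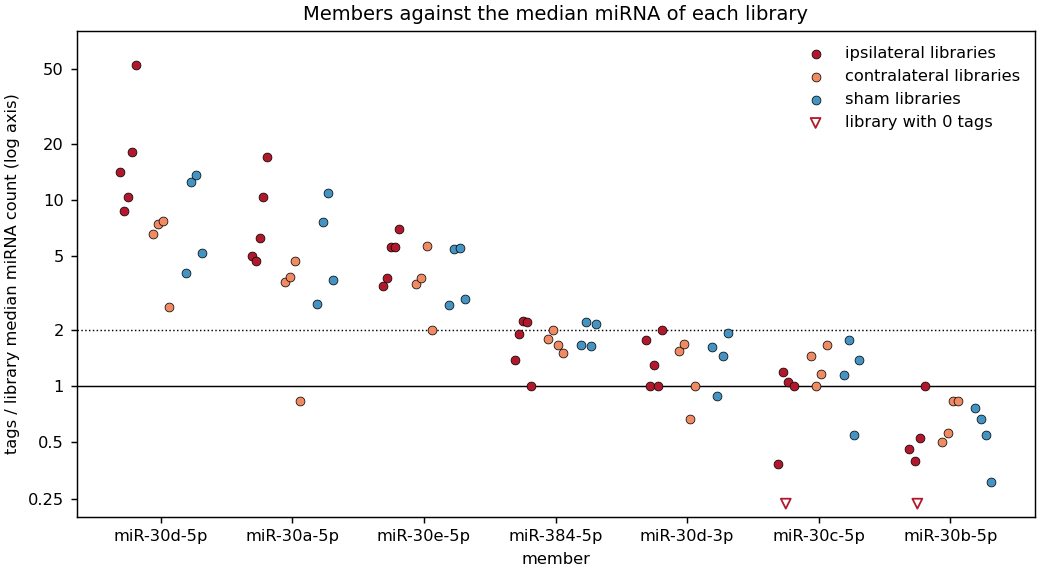
Tags of each of the 7 members divided by the median miRNA count of the same library, on a log axis, with 1 point for each of the 13 libraries. The solid line marks the median and the dotted line 2 times the median; miR-30d-5p, miR-30a-5p and miR-30e-5p lie mostly above 2 times the median, and the other 4 members lie around or below it. The open triangles are ipsilateral replicate 5, which had 0 tags of miR-30c-5p and of miR-30b-5p.

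The guide arm mmu-miR-30d-5p had 184, 175, 175, 90 and 53 tags in ipsilateral replicates 1 to 5. It had 158, 119, 46 and 16 tags in contralateral replicates 1, 2, 4 and 5, and 85, 225, 149 and 67 tags in sham replicates 1, 2, 3 and 5. Per 10000 miRNA tags these were 52.9, 40.4, 46.0, 80.8 and 137.6 in ipsilateral libraries, 25.6, 32.2, 35.1 and 10.9 in contralateral libraries, and 15.2, 56.5, 59.8 and 22.4 in sham libraries. Every ipsilateral library lay above every contralateral library, while sham replicates 1 and 5 lay below every ipsilateral library and sham replicates 2 and 3 lay among them. In whole cortex, fewer cells of a type and less RNA per cell cannot be told apart. Ipsilateral replicate 5, the highest, has a 95% Wilson interval of 105 to 180, and contralateral replicate 5, the lowest, one of 6.73 to 17.8; such intervals cover counting error only.

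miR-30d-5p averaged 71.6 ± 40.1 per 10000 in ipsilateral libraries (SD, n = 5) and 25.9 ± 10.8 in contralateral libraries (SD, n = 4). The log2 fold change was 1.36 (SE 0.45), with an unadjusted p of 0.00417 and an adjusted p of 0.999 over the 1427 miRNAs tested by edgeR's quasi-likelihood test. The exact permutation test of the shares, which ignored the day of surgery, gave an unadjusted p of 0.0159. That is the smallest that 5 against 4 libraries allow. The difference did not pass the correction over all miRNAs. On each of the 4 days of surgery with both hemispheres, miR-30d-5p was higher in the ipsilateral library. Without ipsilateral replicate 5 the log2 fold change was 1.04, and without contralateral replicate 5 it was 1.10.

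Against sham, miR-30d-5p averaged 71.6 ± 40.1 per 10000 in ipsilateral libraries and 38.5 ± 23.0 in sham libraries (SD, n = 4). The groups overlapped, and the log2 fold change of 0.83 (SE 0.43) had an unadjusted edgeR p of 0.0638 and an adjusted p of 0.999. It was higher in the ipsilateral library on 2 of 4 shared days. Without ipsilateral replicate 5 the log2 fold change was 0.52. Contralateral against sham it was −0.53 (SE 0.45), with an edgeR adjusted p of 0.999 and with 25.9 ± 10.8 in contralateral libraries and 38.5 ± 23.0 in sham libraries.

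mmu-miR-30a-5p had 65, 94, 106, 52 and 17 tags in ipsilateral replicates 1 to 5, 87, 62, 28 and 5 tags in contralateral replicates 1, 2, 4 and 5, and 58, 136, 120 and 48 tags in sham replicates 1, 2, 3 and 5. These were 18.7, 21.7, 27.9, 46.7 and 44.1 per 10000 miRNA tags in ipsilateral libraries, 14.1, 16.8, 21.3 and 3.42 in contralateral libraries, and 10.4, 34.2, 48.2 and 16.0 in sham libraries. Contralateral replicate 4 lay above ipsilateral replicate 1, so the hemispheres overlapped by share. As a multiple of the library median they did not, with 4.70 to 17 times in ipsilateral libraries and 0.833 to 4.67 times in contralateral libraries. The gap lay between ipsilateral replicate 2 (94 tags) at 4.70 and contralateral replicate 4 (28 tags) at 4.67 times. The 17 came from ipsilateral replicate 5, whose median miRNA had 1 tag. How many of all miRNAs did not overlap by this measure was not counted. By share, sham replicates 2 and 3 were again the higher pair. miR-30a-5p averaged 31.8 ± 12.9 per 10000 in ipsilateral libraries and 13.9 ± 7.61 in contralateral libraries (SD, n = 5 and 4), a log2 fold change of 1.05 (SE 0.40). The unadjusted edgeR p was 0.0116, the adjusted p was 0.999, and the exact permutation p was 0.0317, unadjusted. It was higher in the ipsilateral library on 4 of 4 shared days. Without contralateral replicate 5 the log2 fold change was 0.75 with an unadjusted edgeR p of 0.0644.

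Ipsilateral against sham, the edgeR log2 fold change of miR-30a-5p was 0.15 with SE 0.38 (adjusted p = 0.999), which turned to −0.13 without sham replicate 1. Contralateral against sham it was −0.91 (SE 0.40), with an unadjusted edgeR p of 0.0300 and an adjusted p of 0.999, at 13.9 ± 7.61 per 10000 in contralateral libraries and 27.2 ± 17.3 in sham libraries. The exact permutation test of that difference gave an unadjusted p of 0.257. Without sham replicate 3 the log2 fold change was −0.49, and without contralateral replicate 5 it was −0.60.

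mmu-miR-30e-5p had 45, 76, 95, 28 and 7 tags in ipsilateral replicates 1 to 5, 85, 61, 34 and 12 tags in contralateral replicates 1, 2, 4 and 5, and 57, 98, 61 and 38 tags in sham replicates 1, 2, 3 and 5. It averaged 19.8 ± 5.25 per 10000 in ipsilateral libraries (n = 5), 16.1 ± 7.40 in contralateral libraries and 18.0 ± 7.64 in sham libraries (SD, n = 4 each). All 3 groups overlapped. The edgeR log2 fold change was 0.13 (SE 0.30) for ipsilateral against sham, 0.29 (SE 0.31) for ipsilateral against contralateral and −0.16 (SE 0.31) for contralateral against sham, with adjusted p of 0.999 in each.

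**Figure D2:**
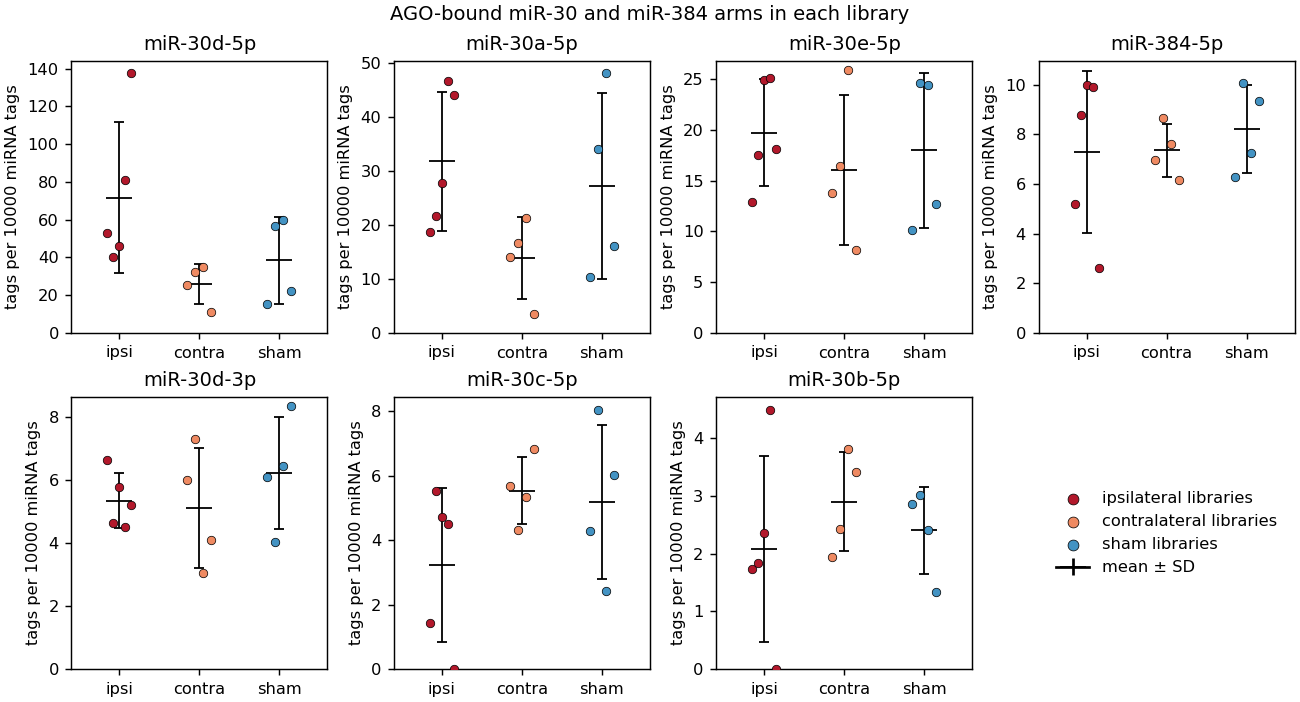
Tags per 10000 miRNA tags of each of the 7 members, with 1 point per library, the mean and the SD, for the ipsilateral (5), contralateral (4) and sham (4) groups. The ipsilateral libraries of miR-30d-5p, 40.4 to 137.6, all lie above the contralateral ones, 10.9 to 35.1, and the other 6 members overlap between every pair of groups.

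mmu-miR-384-5p had the most divergent sequence among the guide arms printed. It had 18, 38, 38, 11 and 1 tags in ipsilateral replicates 1 to 5. It had 43, 32, 10 and 9 tags in contralateral replicates 1, 2, 4 and 5. In sham replicates 1, 2, 3 and 5 it had 35, 40, 18 and 28 tags. It averaged 7.28 ± 3.27 per 10000 in ipsilateral libraries (n = 5), 7.35 ± 1.06 in contralateral libraries and 8.22 ± 1.78 in sham libraries (SD, n = 4 each), and the groups overlapped. Its edgeR log2 fold changes were −0.04 (SE 0.23), 0.08 (SE 0.24) and −0.11 (SE 0.23) for ipsilateral against sham, ipsilateral against contralateral and contralateral against sham. The interval of 2 standard errors around the first, −0.49 to 0.41, leaves room for a difference in either direction.

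mmu-miR-30d-3p, the arm opposite miR-30d-5p on the same hairpin, had 72 tags over the ipsilateral libraries, 74 over the contralateral libraries and 91 over the sham libraries. It averaged 5.34 ± 0.88 per 10000 in ipsilateral libraries (n = 5), 5.11 ± 1.90 in contralateral libraries and 6.22 ± 1.77 in sham libraries (SD, n = 4 each). Its log2 fold change was −0.10 (SE 0.27, edgeR adjusted p = 0.999) for ipsilateral against contralateral, where miR-30d-5p had 1.36; the difference between the 2 arms was not tested. mmu-miR-30c-5p averaged 3.24 ± 2.39 per 10000 in ipsilateral libraries, 5.54 ± 1.03 in contralateral libraries and 5.19 ± 2.41 in sham libraries. mmu-miR-30b-5p averaged 2.09 ± 1.61 per 10000 in ipsilateral libraries, 2.90 ± 0.86 in contralateral libraries and 2.41 ± 0.76 in sham libraries. Both had 0 of 3851 tags in ipsilateral replicate 5, which allows a share of up to 7.79 per 10000, above their mean in every group.

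Of the 7 members, 0 passed the edgeR test at an adjusted p of 0.05 in any of the 3 comparisons, and 0% of the 1427 miRNAs tested did so in each. At an unadjusted edgeR p under 0.05, 0 members passed for ipsilateral against sham, where 2.45% of all miRNAs did. For ipsilateral against contralateral 2 members passed (miR-30d-5p and miR-30a-5p), with 3.64% of all miRNAs, and for contralateral against sham 1 passed (miR-30a-5p), with 3.01%. DESeq2 also called 0 members and 0 miRNAs, with 13, 29 and 20 miRNAs at an unadjusted p under 0.05 in those comparisons in turn. The log2 fold change was above 0 for 3 of 7 members in ipsilateral against sham (median −0.04, against −0.01 over all miRNAs), 4 of 7 in ipsilateral against contralateral (median 0.08, against 0.00) and 2 of 7 in contralateral against sham (median −0.11, against −0.01). Groups did not overlap by share for 1 member, miR-30d-5p, in ipsilateral against contralateral, where this held for 1.05% of all miRNAs tested. It held for 0 members in ipsilateral against sham and in contralateral against sham, where it held for 0.981% and 1.54% of all miRNAs.

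**Figure D3:**
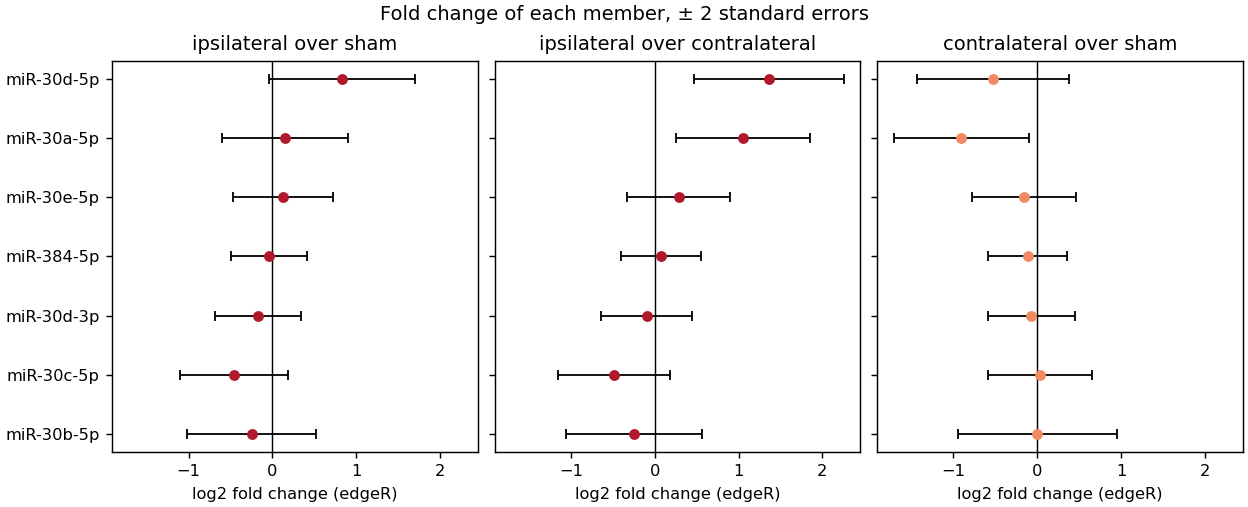
The log2 fold change of each of the 7 members from edgeR, with bars of 2 standard errors, in ipsilateral over sham, ipsilateral over contralateral and contralateral over sham. The bars of miR-30d-5p (1.36) and miR-30a-5p (1.05) in ipsilateral over contralateral and of miR-30a-5p (−0.91) in contralateral over sham leave out 0 before correction, and none of the 21 passed the adjusted threshold.

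The mix of the 3 leading guide arms was also set out by library, as a share that does not depend on how the libraries are scaled. miR-30d-5p made up 62.6%, 50.7%, 46.5%, 52.9% and 68.8% of the tags of miR-30a-5p, miR-30d-5p and miR-30e-5p in ipsilateral replicates 1 to 5. It made up 47.9%, 49.2%, 42.6% and 48.5% in contralateral replicates 1, 2, 4 and 5, and 42.5%, 49.0%, 45.2% and 43.8% in sham replicates 1, 2, 3 and 5. The ipsilateral mean was 56.3% ± 9.14, against 47.0% ± 3.01 in contralateral and 45.1% ± 2.82 in sham libraries, and the ipsilateral libraries spread the most. Ipsilateral replicates 1 and 5 were the highest, with replicate 5 resting on 77 tags of the 3 arms (Wilson interval 57.8% to 78.1%), and ipsilateral replicate 3 overlapped both other groups. This share was set out after its values were seen and was given no test. The 6 guide arms together made up 92.9 to 203 per 10000 miRNA tags in ipsilateral libraries (mean 136), 38.9 to 99.1 in contralateral libraries (mean 71.7) and 49.2 to 145 in sham libraries (mean 99.5).

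**Figure D4:**
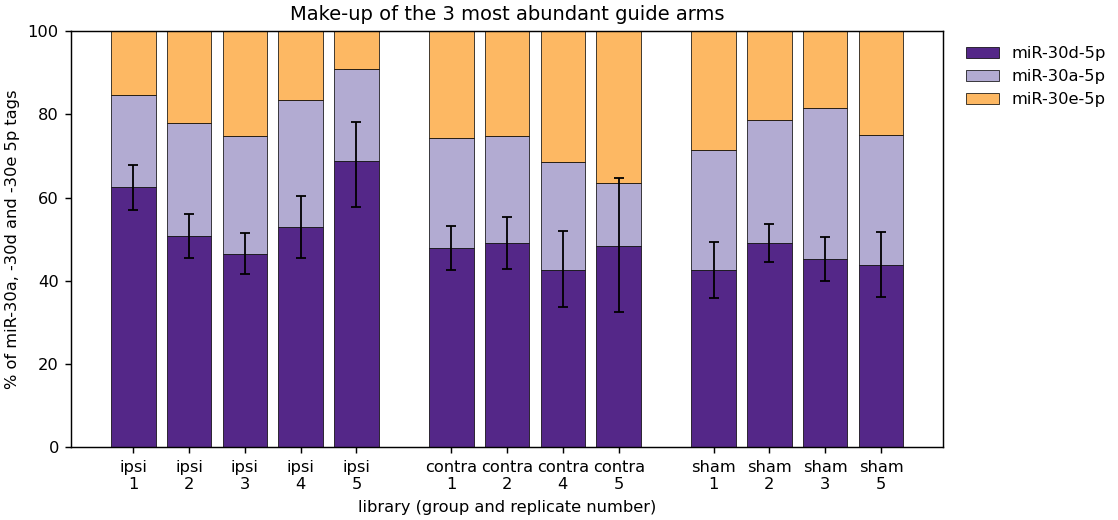
Share of miR-30d-5p, miR-30a-5p and miR-30e-5p in their summed tags, in percent, for each of the 13 libraries; the error bars are 95% Wilson intervals of the miR-30d-5p share. The miR-30d-5p share runs from 46.5% to 68.8% in ipsilateral libraries, 42.6% to 49.2% in contralateral libraries and 42.5% to 49.0% in sham libraries.

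Across the 13 libraries the leading arms moved with each other more than with the rest of the family. As a description over libraries that share depth and scaling, Pearson's r was 0.91 between miR-30a-5p and miR-30d-5p, 0.87 between miR-30a-5p and miR-30e-5p and 0.74 between miR-30d-5p and miR-30e-5p. miR-30d-5p and miR-30d-3p, from 1 hairpin, had r = 0.02, and miR-30c-5p and miR-384-5p had r = 0.76, at levels near the floor. Among 241 miRNAs at 2 times the median or more and outside the family, those most like the summed guide arms were miR-5110 (r = 0.73), miR-124-3p (0.66), miR-7043-5p (0.65), miR-9-3p (0.64) and miR-137-5p (0.63). Of these, miR-124-3p, miR-9-3p and miR-137-5p come from hairpins known for brain expression. miR-5110, miR-7043-5p and miR-137-5p averaged 2.59, 2.47 and 2.02 times the median, close to the cutoff. The brain arms miR-9-5p, miR-137-3p, miR-138-5p and miR-132-3p, at 3.20, 3.27, 2.86 and 2.09 times the median, were not among these 5. How many of the 241 come from hairpins known for brain expression was not counted. With group means taken out, r of the 5 in the same order was 0.66, 0.61, 0.57, 0.73 and 0.49. How much of the likeness to the summed guide arms follows the summed brain markers was not tested.

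AGO peaks also lay on the family's own hairpins, 3 in all. The peak at Mir30a covered positions 23272246 to 23272325 of chromosome 1 and had 62 tags; the peak at Mir30d had 97 tags. The remaining peak, labelled as an intron of Nfyc at 120772629 to 120772708 of chromosome 4, overlapped both arms of Mir30e and had 24 tags. Reads of the mature arms may be counted in both tables, which was not tested. At Mir30d, ipsilateral replicates 1 to 5 had 6, 9, 1, 3 and 40 tags, contralateral replicates 1, 2, 4 and 5 had 5, 2, 0 and 10, and sham replicates 1, 2, 3 and 5 had 1, 9, 11 and 0. The 40 tags of ipsilateral replicate 5 were 106 of every 10000 of its 3780 peak tags (95% Wilson interval 77.8 to 144), and the other ipsilateral libraries had 0.277 to 4.22. At Mir30a that library had 29.1 per 10000 (11 tags), against 0.156 to 4.22 in the other ipsilateral libraries, and sham replicates 2 and 3 had 8.33 and 7.26. For Mir30d the group means were 22.8 ± 46.5 per 10000 peak tags in ipsilateral libraries (n = 5), 2.51 ± 4.00 in contralateral libraries and 2.56 ± 3.01 in sham libraries (SD, n = 4 each). The exact permutation p was 0.667 for ipsilateral against sham, 0.619 for ipsilateral against contralateral and 0.971 for contralateral against sham. The libraries at 0, contralateral replicate 4 and sham replicate 5, allow up to 3.77 and 1.13 per 10000.

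The messenger RNA side of the same libraries was read through the sites that pair with the seed. A site was TGTTTAC (pairing with bases 2 to 8) or GTTTACA (pairing with bases 2 to 7, then an A), searched on the transcript strand only; TGTTTACA holds both and is called the 8mer. Of 7253 peaks in 3′UTRs with sequence, 168 (2.32%) held a site, 80 of them the 8mer, in 153 genes and with 2962 tags. In coding sequence 58 of 3693 peaks (1.57%) held one. The difference between 3′UTR and coding sequence was not tested. Among 191 seed families, the distinct seeds of miRNAs at 2 times the median or more, miR-30 ranked 24 by its 3′UTR share. The seed of miR-7116-3p was the highest, with sites in 10.5% of the 3′UTR peaks. In 3′UTR peaks with sequence over their whole length, 60.0% of 155 sites lay within 20 bases of the peak centre. This held for 60.6% of 20952 sites of the other seed families pooled. A site under 2 overlapping peaks was counted in each. Tags of overlapping peaks were summed as given, here and in the shares of 3′UTR tags below. A match describes letters under a peak; it does not show which miRNA was bound there.

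The sites under the most heavily covered miR-30 peaks are printed because these peaks carry the most tags, and the site in the calcineurin gene Ppp3r1 because that gene had the most exonic tags of the known targets. Capitals mark the seed match; coordinates are mm10 and sequence is that of GENCODE M21 transcripts.
Rhob, chr12:8497727-8497754, minus strand: tgaacttatgaTGTTTACAtaagagttc
Atp2b2, chr6:113747706-113747735, minus strand: agaatgtaattTGTTTACAaacctgtagat
Mcf2l, chr8:13019583-13019612, plus strand: aagaatcactgTGTTTACAtgaaatgacaa
Larp1, chr11:58061134-58061162, plus strand: gttgcggagtaGTTTACAtcttcaccttc
Adam10, chr9:70779554-70779582, plus strand: aagagtctaagGTTTACAcaatcactcac
Gpm6b, chrX:166387968-166387996, plus strand: ctggacagtgaGTTTACAgtttcatatca
Ppp3ca, chr3:136935624-136935652, plus strand: ctctattgtacGTTTACAgtcgcagcact
Nefl, chr14:68087709-68087738, plus strand: aatcacacagaTGTTTACAataataataaa
Ppp3r1, chr11:17199876-17199905, plus strand: aatgtacctctTGTTTACAtaatctgcata

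Rhob, a small GTPase, carried the deepest family site peak, with 99 tags. It had 3, 10, 22, 3 and 1 tags in ipsilateral replicates 1 to 5, 17, 5, 4 and 1 in contralateral replicates 1, 2, 4 and 5, and 12, 9, 0 and 12 in sham replicates 1, 2, 3 and 5. Per 10000 3′UTR tags this was 6.67 ± 4.02 in ipsilateral libraries (n = 5), 6.47 ± 4.05 in contralateral libraries and 6.48 ± 4.60 in sham libraries (SD, n = 4 each), means that differ by less than any of the SDs. The site peak of Atp2b2, a plasma membrane calcium pump, had 75 tags: 5.30 ± 3.44 per 10000 in ipsilateral libraries, 2.96 ± 2.11 in contralateral libraries and 6.57 ± 1.52 in sham libraries. Every contralateral library lay below every sham library there, which is given as a description of 14 tags in contralateral libraries against 30 in sham libraries.

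Among the other leading site peaks, Mcf2l (a guanine nucleotide exchange factor) had 61 tags, Larp1 (an RNA-binding regulator of translation) 60, Adam10 (a membrane metalloprotease) 58 and Nefl (neurofilament light chain) 44. Gpm6b, a membrane proteolipid of neurons and glia, had 2 overlapping peaks over 1 site, with 53 and 46 tags. Celf4, a neuronal RNA-binding protein, had 45. Ppp3ca, the catalytic subunit of calcineurin, had 53 tags, of which ipsilateral replicates 1 to 5 held 2, 10, 21, 2 and 0, contralateral replicates 1, 2, 4 and 5 held 2, 3, 2 and 1, and sham replicates 1, 2, 3 and 5 held 4, 3, 1 and 2. Its mean was 4.89 ± 4.66 per 10000 3′UTR tags in ipsilateral libraries, 2.68 ± 1.84 in contralateral libraries and 2.18 ± 0.73 in sham libraries, and the groups overlapped. Apart from Atp2b2 in contralateral against sham, the groups overlapped in each comparison for all 10 of these peaks. Of the 415 3′UTR peaks with at least 44 tags, the groups did not overlap for 2.65% in ipsilateral against sham, 2.89% in ipsilateral against contralateral and 3.61% in contralateral against sham.

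Summed over all its sites, the family's share of 3′UTR tags overlapped between the groups. It was 2.09%, 2.06%, 2.22%, 1.91% and 1.72% in ipsilateral replicates 1 to 5, 1.98%, 2.24%, 2.33% and 1.83% in contralateral replicates 1, 2, 4 and 5, and 1.77%, 2.52%, 1.84% and 2.36% in sham replicates 1, 2, 3 and 5. The means were 2.00% ± 0.192 in ipsilateral libraries, 2.09% ± 0.232 in contralateral libraries and 2.12% ± 0.375 in sham libraries. In edgeR's test over 189 seed families, the change on the log2 scale was −0.06 (SE 0.13, adjusted p = 0.957) for ipsilateral against sham, −0.03 (SE 0.13, adjusted p = 0.987) for ipsilateral against contralateral and −0.03 (SE 0.13, adjusted p = 0.958) for contralateral against sham. The family was not called in any of the 3; 0.529%, 0.529% and 0% of the families were. The interval of 2 standard errors for ipsilateral against contralateral was −0.29 to 0.23. With all peak tags as library size the sign turned in each comparison, to at most 0.20. The exact permutation p of the shares was 0.556, 0.508 and 0.886 in the same order.

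**Figure D5:**
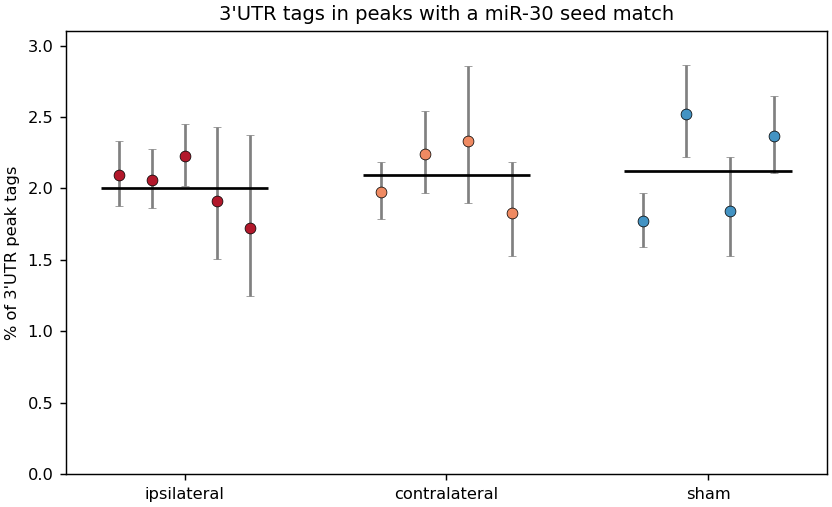
Share of each library's 3′UTR peak tags that lay in the 168 peaks with a miR-30 seed match, in percent, with 95% Wilson intervals and the group mean as a line. The ipsilateral (1.72% to 2.22%), contralateral (1.83% to 2.33%) and sham (1.77% to 2.52%) libraries overlap.

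Gene by gene, the 153 genes with a site peak were set beside all genes with 3′UTR tags, with no test. The pooled share of 3′UTR tags in site peaks was higher in ipsilateral than in sham libraries for 46.4% of the 153. Over all 3′UTR peaks of a gene, this held for 50.7% of all 2645 genes. The same was 55.6% against 52.0% of all genes for ipsilateral over contralateral, and 44.4% against 48.2% for contralateral over sham.

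Of 33 genes known as miR-30 targets, 13 had exonic AGO tags and 4 (Ddit4, Mtdh, Ppp3r1 and Tnrc6a) were deep enough to test among 444 genes. In each of the 3 comparisons 0 of the 4 were called by edgeR, against 0.225%, 0% and 0% of all genes; 43, 54 and 8 genes had an unadjusted p under 0.05, and DESeq2 called 2, 4 and 0. The median log2 fold change of the 4 was 0.15 against −0.02 for all genes in ipsilateral over sham, 0.55 against 0.02 in ipsilateral over contralateral, and −0.41 against −0.00 in contralateral over sham. Of the 13, 4 had a site peak in the 3′UTR: Ppp3r1, Tnrc6a, Ppp3ca and Lifr, the receptor of leukemia inhibitory factor.

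Ppp3r1, the regulatory subunit of calcineurin, was the deepest of the known targets with 349 exonic tags. Gene sums count every exonic peak of a gene, with or without a site. The peak over the Ppp3r1 site printed above had 40 tags. Of these, ipsilateral replicates 1 to 5 held 2, 9, 9, 0 and 2. Contralateral replicates 1, 2, 4 and 5 held 1, 5, 3 and 3, and sham replicates 1, 2, 3 and 5 held 3, 1, 0 and 2. Per 10000 exonic tags the gene sum of Ppp3r1 was 7.56, 28.6, 25.7, 24.1 and 31.3 in ipsilateral replicates 1 to 5. It was 9.64, 21.9, 11.8 and 15.4 in contralateral replicates 1, 2, 4 and 5. In sham replicates 1, 2, 3 and 5 it was 14.4, 15.2, 13.6 and 10.5. Ipsilateral replicate 1 was the lowest of all 13 libraries and the other ipsilateral libraries were the highest 4. The mean was 23.5 ± 9.32 in ipsilateral libraries (n = 5), 14.7 ± 5.36 in contralateral libraries and 13.4 ± 2.07 in sham libraries (SD, n = 4 each). Its edgeR log2 fold change was 0.68 (SE 0.33, adjusted p = 0.482) for ipsilateral against sham, 0.59 (SE 0.33, adjusted p = 0.413) for ipsilateral against contralateral and 0.09 (SE 0.35, adjusted p = 0.993) for contralateral against sham, so it was not called. Without ipsilateral replicate 1 the first was 0.92, and without the 3 libraries of replicate 1 it was 1.00 (edgeR adjusted p = 0.0780).

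Tnrc6a, which encodes an AGO partner needed for silencing, averaged 12.7 ± 4.35 per 10000 exonic tags in ipsilateral libraries, 9.37 ± 1.95 in contralateral libraries and 12.8 ± 3.29 in sham libraries. Its edgeR log2 fold change was 0.04 (SE 0.33, adjusted p = 0.981) for ipsilateral against sham, which turned to −0.36 without ipsilateral replicate 1, and 0.55 (SE 0.35, adjusted p = 0.463) for ipsilateral against contralateral. Ddit4, an inhibitor of mTORC1 signalling induced by low oxygen, averaged 5.56 ± 1.67 in ipsilateral libraries, 4.11 ± 1.31 in contralateral libraries and 5.43 ± 1.93 in sham libraries, with no test past the threshold (log2 fold change 0.25, SE 0.37, edgeR adjusted p = 0.892 for ipsilateral against sham). Mtdh, encoding metadherin, gave an edgeR log2 fold change of −0.71 with SE 0.46 and an adjusted p of 0.589 for ipsilateral against sham, with 3.49 ± 2.00 in ipsilateral libraries and 4.69 ± 2.66 in sham libraries. Ppp3ca and Gnai2, an inhibitory G protein subunit, had 93 and 89 exonic tags and were below the filter. Of 15 genes of miRNA processing and silencing, 5 had exonic tags and 3 (Dicer1, Tnrc6a and Tnrc6b) were tested; 0 were called in the 3 comparisons.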

How the data were processed

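The authors deposited raw tag counts per mature miRNA and per AGO peak for 13 libraries; per the submitters' processing notes reads were aligned with Novoalign to mm10. The peak caller and the handling of duplicate reads were not given in the sources used here, and 1 set of peaks served all libraries. Members and gene lists were chosen with earlier results of these data known. Counts were tested with edgeR 4.0.16 (TMM, filterByExpr, quasi-likelihood, all 13 libraries in 1 fit, group as the only term, two-sided, Benjamini-Hochberg over all features, threshold 0.05) in R 4.3.3, tested on simulated data. Of the 1705 miRNAs 1427 passed the filter, with all 7 members among them. Single values had exact permutation tests (scipy 1.17.1), which between groups shuffled the libraries without regard to replicate number. DESeq2 1.42.0, other scalings, no filter, a replicate block, leaving out replicate 1 and leaving out each library were alternatives. Levels are given per 10000 miRNA tags and as a multiple of the library median count. SE is the log2 fold change divided by the root of the F statistic. 1 of 18285 peaks had no position and was left out (44 tags); 12289 were exonic, of which 7835 were in 3′UTRs and 11197 of the exonic ones had at least 50 bases of transcript sequence (GENCODE M21). Named were all members, the other arms of their hairpins, the 5 miRNAs most like the summed guide arms (log2 share with a pseudocount of 0.5 tags), hairpin peaks, the 10 site peaks with the most tags, and the known targets with a site peak or among the 6 with the most exonic tags. Ccn2 was matched through its older symbol Ctgf.

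Replicate numbers pair the libraries, since the labels say each marks a day of surgery. Deviations from the group means correlated from −0.05 to 0.25 over the 11 pairs of libraries with the same number (median 0.10) and from −0.22 to 0.20 over the 45 pairs with different numbers (median −0.05). Whether both hemispheres of a number came from the same mice, or how many mice were pooled, is not stated. Depth ran from 3851 to 61708 miRNA tags per library, so 3 tags, the limit a count of 0 allows, are 7.79 per 10000 in the shallowest. Intervals are at the 95% level and cover counting error only.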

Additional observations from a re-analysis of the deposited data

Results flagged for a closer look

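4 of the 33 groups of libraries examined for a library far from its group held one, all at the family's hairpin peaks; chance gives about 1 in 20. In the ipsilateral group, replicate 5 was far above the others at all 3 peaks: 105.8 tags per 10000 peak tags at Mir30d (next highest 4.22), 29.1 at Mir30a (next highest 4.22) and 5.29 at Mir30e (next highest 1.44). Ipsilateral replicate 5 was also the shallowest library, with 3780 peak tags, and it had the highest share of miR-30d-5p. In the contralateral group, replicate 5 had 8.48 per 10000 at Mir30d, against 0.792 in the next highest library. The part of depth or of the mature arms' own reads in these values was not tested.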

How the results depend on the processing

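No member passed an adjusted p of 0.05 in any alternative run, and the smallest adjusted p in any edgeR or DESeq2 fit was 0.924. Over 21 member comparisons and 159 values from alternatives other than leaving out 1 library, 152 kept their direction and 7 reversed, all for members whose log2 fold change was near 0. With the replicate block they were miR-30b-5p in contralateral against sham (−0.16), miR-30e-5p in ipsilateral against sham (−0.0579), miR-384-5p in ipsilateral against contralateral (−0.0039) and miR-30d-3p in contralateral against sham (0.0229); without the 3 libraries of replicate 1, miR-30c-5p in contralateral against sham (−0.19) and miR-384-5p in ipsilateral against sham (0.0037); with tags above the library median, miR-30d-3p in ipsilateral against contralateral (0.469 per 10000). The block changed no member's call: miR-30d-5p in ipsilateral against contralateral was 1.29 (adjusted p = 0.942) with it. Leaving out each library in turn, the calls of miRNAs stayed at 0 and the log2 fold change in ipsilateral against contralateral ran from 1.04 to 1.52 for miR-30d-5p and from 0.75 to 1.21 for miR-30a-5p. Signs changed for miR-30a-5p (−0.13 to 0.55), miR-30e-5p (−0.0611 to 0.32) and miR-384-5p (−0.16 to 0.0979) in ipsilateral against sham, for miR-384-5p (−0.0627 to 0.21) and miR-30d-3p (−0.25 to 0.0403) in ipsilateral against contralateral, and for miR-30b-5p (−0.16 to 0.19), miR-30c-5p (−0.13 to 0.31), miR-30e-5p (−0.37 to 0.0446) and miR-30d-3p (−0.25 to 0.0737) in contralateral against sham. miR-30c-1-3p in contralateral against sham reversed with the block (−0.0309) and ran from −0.10 to 0.38. The site share reversed with all peak tags as library size (0.197, 0.0205 and 0.176 for ipsilateral against sham, ipsilateral against contralateral and contralateral against sham) and with all exonic peaks (0.0620 and 0.0986 in the first 2); leaving out each library it ran from −0.145 to 0.0320, −0.0839 to 0.0155 and −0.119 to 0.0613. Gene calls in ipsilateral against sham, 1 in all, were 2 with DESeq2, 2 without the filter, 2 without replicate 1 and 0 to 10 leaving out each library; in ipsilateral against contralateral, 0 in all, they were 4, 2, 5 and 0 to 10, with 1 under the block. The 10 came in both without ipsilateral replicate 1. Among known targets, Tnrc6a in ipsilateral against sham reversed without the filter (−0.0485) and without replicate 1 (−0.19; −0.36 to 0.23 leaving out each library), Mtdh in ipsilateral against contralateral with the block (0.13; −0.28 to 0.22), and Ppp3r1 in contralateral against sham ran from −0.15 to 0.27. The order of members had 4 of 6 steps apart, 4 without replicate 1 and 5 with tags above the library median. The cause of these changes was not tested. Depth limits the 4 members near the floor: ipsilateral replicate 5 held 0 to 2 tags of each.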

Other observations

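The other arms of the family's hairpins lay near or under the library median. miR-384-3p averaged 1.74 times the median over the 13 libraries, close to miR-384-5p at 1.80, while miR-30c-2-3p averaged 0.87 times, miR-30c-1-3p 0.77 times and miR-30b-3p 0.74 times. miR-30c-1-3p averaged 4.15 ± 1.42 per 10000 miRNA tags in ipsilateral libraries (n = 5), 2.81 ± 1.50 in contralateral libraries and 2.32 ± 0.83 in sham libraries (SD, n = 4 each). Its edgeR log2 fold change for ipsilateral against sham was 0.76 (SE 0.33), with an unadjusted p of 0.0277 and an adjusted p of 0.999; it was singled out after its values were seen. Without ipsilateral replicate 3 the unadjusted p was 0.0771, and with the replicate block 0.116.

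miR-30f, read from the strand opposite Mir30e, had 63 tags. Of these, ipsilateral replicate 4 held 9 and sham replicate 3 held 16, that is 8.08 and 6.42 per 10000 miRNA tags, and the other 11 libraries had 0 to 4.57.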
